A study of Rattus norvegicus with 10 samples.

Results

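The genes described here are 9 members of the synaptic adhesion machinery: the neurexins Nrxn2 and Nrxn3, the neuroligins Nlgn1, Nlgn2 and Nlgn3, the leucine-rich repeat transmembrane proteins Lrrtm3 and Lrrtm4, and the interleukin-1 receptor accessory protein-like genes Il1rapl1 and Il1rapl2. They were listed by name, with earlier results of these data known. All 9 were among the 25399 genes of the nucleus matrices, and 8 of them were among the 14166 genes of the bulk table. Il1rapl2 was the member without a bulk row.

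Neurexins sit on the presynaptic side of a synapse and bind partners across the cleft, and their many partners include the neuroligins, the LRRTMs, cerebellins with their delta glutamate receptors, latrophilins and dystroglycan. Neuroligins recruit scaffolds on the postsynaptic side, with Nlgn1 best known at glutamatergic synapses and Nlgn2 at inhibitory ones, while the LRRTMs help to hold glutamate receptors in place. IL1RAPL proteins are postsynaptic too and bind presynaptic receptor-type tyrosine phosphatases, such as the one encoded by Ptprd. In the dentate gyrus this machinery serves the synapses of granule neurons, which relay cortical input to the hippocampus, and those of the GABAergic interneurons around them.

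The tissue was the ipsilateral dentate gyrus of young adult male Sprague Dawley rats, taken 3 weeks after injury in the TBI rats. TBI rats had a craniectomy and a lateral fluid percussion injury, sham rats had the craniectomy without the fluid pulse, and the naïve rat had neither. For bulk RNA-seq there were 3 rats per group, sham and TBI. For snRNA-seq, 2 TBI rats were set against a control formed by 1 sham and 1 naïve rat. All bulk libraries share 1 batch label and all nucleus libraries another. P-values measure the spread between these few samples.

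Bulk libraries held 25121893 to 44649404 estimated counts. The 4 nucleus libraries held 26086141 to 35293678 unique molecular identifiers (UMIs) in 55124 nuclei that passed the study's filters, with a median of 1647 to 2652 UMIs per nucleus. Pairs of libraries shared 45 to 60 nucleus barcodes, at most 0.452% of the smaller library. Clustering, with all 9 members and their partner genes kept out of the features, gave 11 classes named from marker lists. Granule-like nuclei made up 53.6% of all nuclei. A cluster of 1891 nuclei had astrocyte markers raised but mostly mitochondrial leading genes, and was left unnamed. Astrocyte-like values therefore do not cover it. Every oligodendrocyte and microglia marker, and 10 of 12 GABAergic markers, was highest in its own class. Lower shares were found for granule (4 of 7), other glutamatergic (6 of 10) and pericyte markers (5 of 7). The matrices also held entries stored as 0, which made up 11.1% (sham), 15.5% (naïve), 1.63% (TBI replicate 1) and 27.4% (TBI replicate 2) of each matrix. They were counted as 0.

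The first question was in which cells each member was found. Levels are given in CPM, which here means a gene's UMIs scaled to the UMIs of all genes, summed over a class in 1 rat, and they are compared between classes for the same gene only. As a measure of free RNA, Slc17a7, the vesicular glutamate transporter of granule neurons, was read in the same classes. Its level was 23.6% of the granule level in GABAergic-like nuclei, 33.5% in OPC-like nuclei (oligodendrocyte precursor cells), 31.4% in oligodendrocyte-like, 54.8% in astrocyte-like and 45.6% in microglia-like nuclei. A member at about that share of its own granule level cannot be told apart from RNA carried over from granule neurons.

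**Figure D1:**
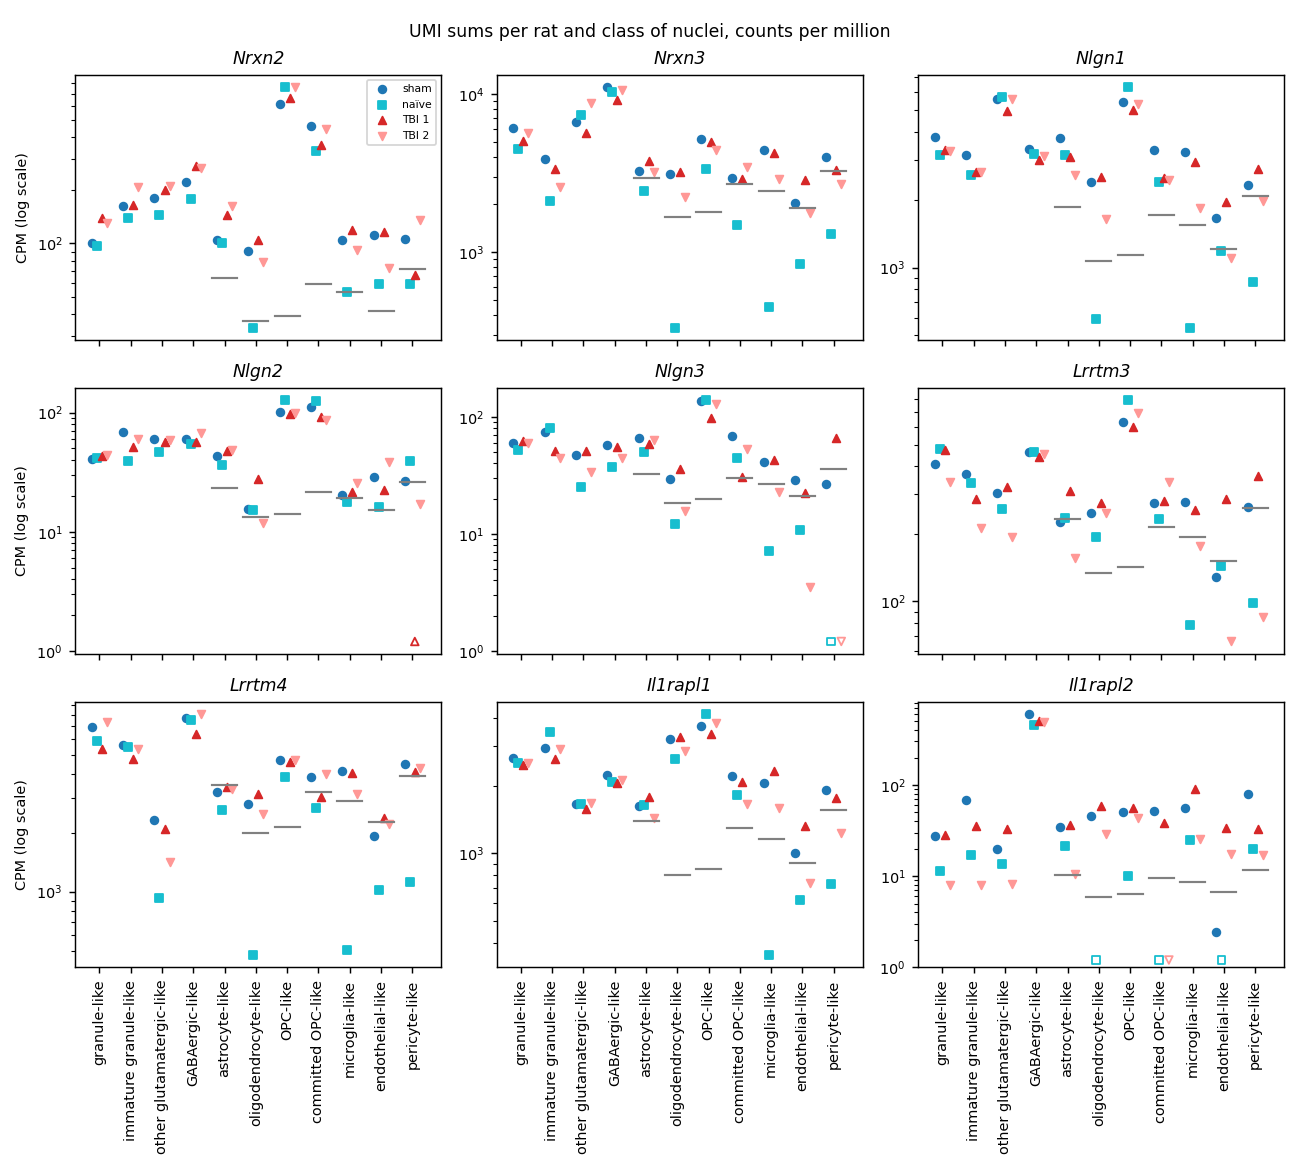
Level of each member by class and rat, in CPM on a log axis, with 1 symbol per rat (sham, naïve, TBI 1, TBI 2) and open symbols at the foot for a count of 0. Grey lines in the glial and vessel classes mark the member's granule level times the Slc17a7 share of that class. GABAergic-like nuclei held 458 to 598 CPM of Il1rapl2 and OPC-like nuclei held 614 to 768 CPM of Nrxn2, each above every other class.

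Nrxn3, one of the presynaptic hubs, was highest in GABAergic-like nuclei. It reached 11128 CPM in the sham rat, 10353 in the naïve rat and 9140 and 10558 in TBI replicates 1 and 2, against 6091, 4494, 5063 and 5648 CPM in granule-like nuclei. The ranges of the 2 classes did not overlap. Other glutamatergic-like nuclei lay between, at 5691 to 8792 CPM, and overlapped the granule range. Immature granule-like nuclei held less, at 2090 to 3869 CPM, below the granule-like nuclei of every rat.

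Nrxn2, the other neurexin measured here, followed another order. OPC-like nuclei held 614 CPM in the sham rat, 768 in the naïve rat and 662 and 768 in the TBI rats, while granule-like nuclei held 100.1, 96.4, 139 and 131 CPM. The OPC level was 6.03 times the granule level, and the committed OPC-like nuclei, at 331 to 462 CPM, came next without overlapping either the OPC-like or the GABAergic-like nuclei. GABAergic-like nuclei held 179 to 273 CPM and overlapped the other glutamatergic-like nuclei at 146 to 211 CPM.

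Among the neuroligins, Nlgn1 had 2 high classes that did not differ beyond the spread between rats. OPC-like nuclei held 5422, 6352, 4978 and 5330 CPM in the sham, naïve, TBI 1 and TBI 2 rats, and other glutamatergic-like nuclei held 5599, 5731, 4957 and 5582 CPM. Granule-like nuclei were lower in every rat, at 3165 to 3781 CPM, and so were GABAergic-like nuclei, at 3006 to 3371 CPM.

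Nlgn2, the neuroligin of inhibitory synapses, was highest in OPC-like nuclei at 96.6 to 127 CPM and in committed OPC-like nuclei at 86.8 to 125 CPM. GABAergic-like nuclei followed at 54.7 to 67.8 CPM, and granule-like nuclei held 41.0 to 43.8 CPM. Nlgn3, which is found at both kinds of synapse, was again highest in OPC-like nuclei, at 98.3 to 139 CPM. Its granule-like level was 52.5 to 62.5 CPM and overlapped those of the astrocyte-like, immature granule-like and GABAergic-like nuclei.

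The postsynaptic LRRTMs split by class. Lrrtm4 was high in granule-like nuclei (6907, 5851, 5371 and 7299 CPM in the sham, naïve, TBI 1 and TBI 2 rats) and in GABAergic-like nuclei (7670, 7526, 6396 and 8067 CPM), and these overlapped. Other glutamatergic-like nuclei were the lowest of the 11 classes by their mean, at 2318, 925, 2096 and 1418 CPM, which is 26.6% of the granule level. Granule markers there summed to 992, 339, 1147 and 462 CPM in the same order of rats, and their part in this level of Lrrtm4 was not tested. Lrrtm3 was highest in OPC-like nuclei, at 600 to 790 CPM, while GABAergic-like nuclei (440 to 463 CPM) and granule-like nuclei (341 to 478 CPM) overlapped.

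Il1rapl1, a gene linked to intellectual disability, was highest in OPC-like nuclei at 3692, 4165, 3377 and 3790 CPM. Oligodendrocyte-like nuclei held 3236, 2622, 3290 and 2847 CPM, above the granule-like nuclei of the same rat in all 4 rats (2660, 2527, 2469 and 2509 CPM). That was 118% of the granule level where Slc17a7 stood at 31.4%. GABAergic-like nuclei held less than granule-like nuclei in every rat, at 2064 to 2226 CPM.

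Il1rapl2, its close relative, was high in GABAergic-like nuclei alone among the 11 classes, with 598 CPM (sham), 458 (naïve), 507 (TBI 1) and 491 CPM (TBI 2). Granule-like nuclei held 27.6, 11.3, 28.4 and 8.07 CPM in the same order, on 1355 UMIs over all 4 rats. No other class exceeded 90.6 CPM in any rat. The low granule values moved with the entries stored as 0, which made up 26.3%, 32.4%, 2.55% and 68.8% of the Il1rapl2 entries of granule-like nuclei in the same order, and their part in the order of the rats was not tested.

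Glial levels of several members lay close to the free-RNA share. In microglia-like nuclei Lrrtm4 stood at 46.5%, Lrrtm3 at 46.5% and Nlgn3 at 48.5% of their granule levels, beside 45.6% for Slc17a7. These are shares of means over rats that differed widely. Microglia-like nuclei held 501 to 4144 CPM of Lrrtm4, 78.2 to 279 of Lrrtm3 and 7.11 to 43.2 of Nlgn3, so the shares do not describe each rat. Astrocyte-like nuclei held Lrrtm4 at 49.7%, Lrrtm3 at 54.6% and Nrxn3 at 59.5%, beside 54.8%. In OPC-like nuclei, by contrast, all 9 members exceeded the Slc17a7 share in all 4 rats, from 70.2% for Lrrtm4 to 603% for Nrxn2. Carry-over from GABAergic-like nuclei is not covered by this share. Il1rapl2 had a mean of 39.6 CPM in OPC-like, 513 in GABAergic-like and 18.8 in granule-like nuclei, so the share cannot judge it. Glial clusters with at least 0.6 times the granule level of Slc17a7 had been left out beforehand, which limits the shares.

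Class differences were tested within the 4 rats by the quasi-likelihood test of edgeR on summed UMIs, with rat as a covariate and with adjustment over 10835 genes. Between GABAergic-like and granule-like nuclei, 4 of the 9 members passed an adjusted p of 0.05, all of them higher in GABAergic-like nuclei. Of all genes tested, 30.5% passed, 16.3% in that direction and 14.2% in the other, and 38.8% had p under 0.05 before adjustment. DESeq2 called the same 4 members and 39.0% of all genes. Il1rapl2 had a log2 fold change (log2FC) of 4.93 ± 0.31 (SE), Nrxn2 0.94 ± 0.15, Nrxn3 0.93 ± 0.36 and Nlgn2 0.43 ± 0.14. The edgeR adjusted p-values were 3.1e-15, 1.99e-06, 0.0452 and 0.0176.

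The calls of Nrxn3 and Nlgn2 did not hold in every fit with 1 rat fewer, although the log2FC moved little. In each of the 4 rats Nrxn3 was higher in GABAergic-like than in granule-like nuclei, so a lost call does not mean that the rats disagreed in direction. Nrxn3 lost its call without the sham rat (edgeR adjusted p = 0.157), without TBI replicate 1 (0.111) and without TBI replicate 2 (0.153), at log2FC of 0.96, 0.93 and 0.995. Nlgn2 lost its call without the sham rat (0.162), at 0.41. Il1rapl2 and Nrxn2 kept theirs in all 4 fits. The other 5 members did not pass, with log2FC of 0.18 ± 0.34 for Lrrtm4, 0.05 ± 0.22 for Lrrtm3, -0.15 ± 0.29 for Nlgn1, -0.33 ± 0.26 for Il1rapl1 and -0.36 ± 0.20 for Nlgn3.

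Oligodendrocyte-like nuclei were compared with OPC-like nuclei, the cells they arise from. Of the 9 members, 7 were lower in oligodendrocyte-like nuclei at an adjusted p of 0.05 and none was higher, where 13.6% of all genes were lower and 11.5% higher, 25.1% in all and 33.6% before adjustment. DESeq2 called the same 7 and 27.4% of all genes. Nrxn2 had a log2FC of -3.05 ± 0.18, Nlgn2 -2.45 ± 0.21, Nlgn3 -2.28 ± 0.28, Nlgn1 -1.58 ± 0.30 and Lrrtm3 -1.35 ± 0.24. The edgeR adjusted p was 6.76e-05 or less for these 5 members and they kept their calls with each rat left out.

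Nrxn3 (log2FC -1.03 ± 0.36, edgeR adjusted p = 0.0320) and Lrrtm4 (-0.996 ± 0.34, 0.0273) passed with all rats. Without the sham rat their adjusted p-values were 0.0765 and 0.0817, and without TBI replicate 2 they were 0.142 and 0.120. Il1rapl1 did not pass at -0.18 ± 0.27, nor did Il1rapl2 at -0.04 ± 0.44. Oligodendrocyte-like levels of Nrxn3 ranged from 331 CPM in the naïve rat to 3200 CPM in TBI replicate 1, and stored zeros made up 57.0% and 1.89% of the entries there.

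Between astrocyte-like and granule-like nuclei, 4 of the 9 members were lower in astrocyte-like nuclei and none was higher. Of all genes, 48.7% passed, 23.2% lower and 25.5% higher, and DESeq2 called 54.4%. The members were Lrrtm4 (log2FC -1.20 ± 0.34), Lrrtm3 (-1.07 ± 0.22), Nrxn3 (-0.94 ± 0.36) and Il1rapl1 (-0.82 ± 0.27), with edgeR adjusted p-values of 0.00351, 0.000149, 0.0277 and 0.00971. Lrrtm3 alone kept its call with every rat left out. Without TBI replicate 2 the adjusted p was 0.0593 for Lrrtm4, 0.170 for Nrxn3 and 0.135 for Il1rapl1, and without the sham rat it was 0.135 for Nrxn3 and 0.0797 for Il1rapl1. Nrxn3 also missed the threshold with relative log expression factors (log2FC -0.78) and with DESeq2 (adjusted p = 0.0516).

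**Figure D2:**
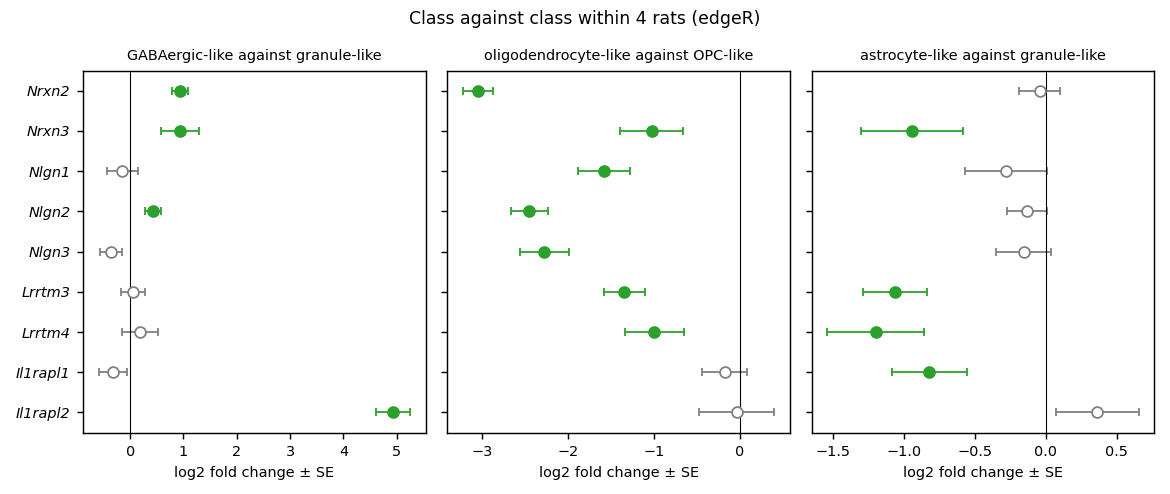
Log2 fold change of each member between classes within the 4 rats, with its standard error (edgeR), where filled symbols passed an adjusted p of 0.05. Il1rapl2 stands apart at 4.93 in GABAergic-like nuclei, and the 7 members that passed between oligodendrocyte-like and OPC-like nuclei lie between -3.05 and -0.996.

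Within the neuron classes, the members also varied from cluster to cluster. These clusters were read after the values were seen, so they are described without a test. Il1rapl2 belonged to GABAergic-like cluster 11, whose leading genes included Sst, the gene of somatostatin interneurons, and Il1rapl2 itself, where it was at 1363 CPM in the sham rat, 931 in the naïve rat and 1121 and 1301 CPM in the TBI rats. Cluster 12, led by Reln and Npas1, held 52.4 to 122 CPM, and cluster 13, led by Reln and Gad2, held 15.7 to 25.2 CPM. Of the 5584 Il1rapl2 UMIs in GABAergic-like nuclei, 5189 came from cluster 11.

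Nrxn3 took another order among the same clusters. Cluster 12 held 16431, 15376, 12421 and 16811 CPM in the sham, naïve, TBI 1 and TBI 2 rats, and cluster 11 held 9867 to 11774 CPM. Cluster 13 held 2953 to 4453 CPM, which overlapped granule-like clusters 0, 2 and 4 (3380 to 5894 CPM) and lay below granule-like cluster 1 (6082 to 7632 CPM). The higher class mean of Nrxn3 in GABAergic-like nuclei rested on clusters 11 and 12.

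Cluster 13 was instead the highest of all neuron clusters for Lrrtm4, at 9882, 9609, 8239 and 10645 CPM. It also held the most Il1rapl1 of the GABAergic-like clusters, at 2936 to 3221 CPM, where clusters 11 and 12 held 1551 to 1883 CPM. Among other glutamatergic-like nuclei, clusters 9 and 10 held 1520 to 2056 and 313 to 1770 CPM of Lrrtm4, while cluster 15 held 3136 to 3439 CPM. Cluster 15 had 389 and 349 nuclei in the sham rat and TBI replicate 1 but 8 and 24 in the naïve rat and TBI replicate 2.

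**Figure D3:**
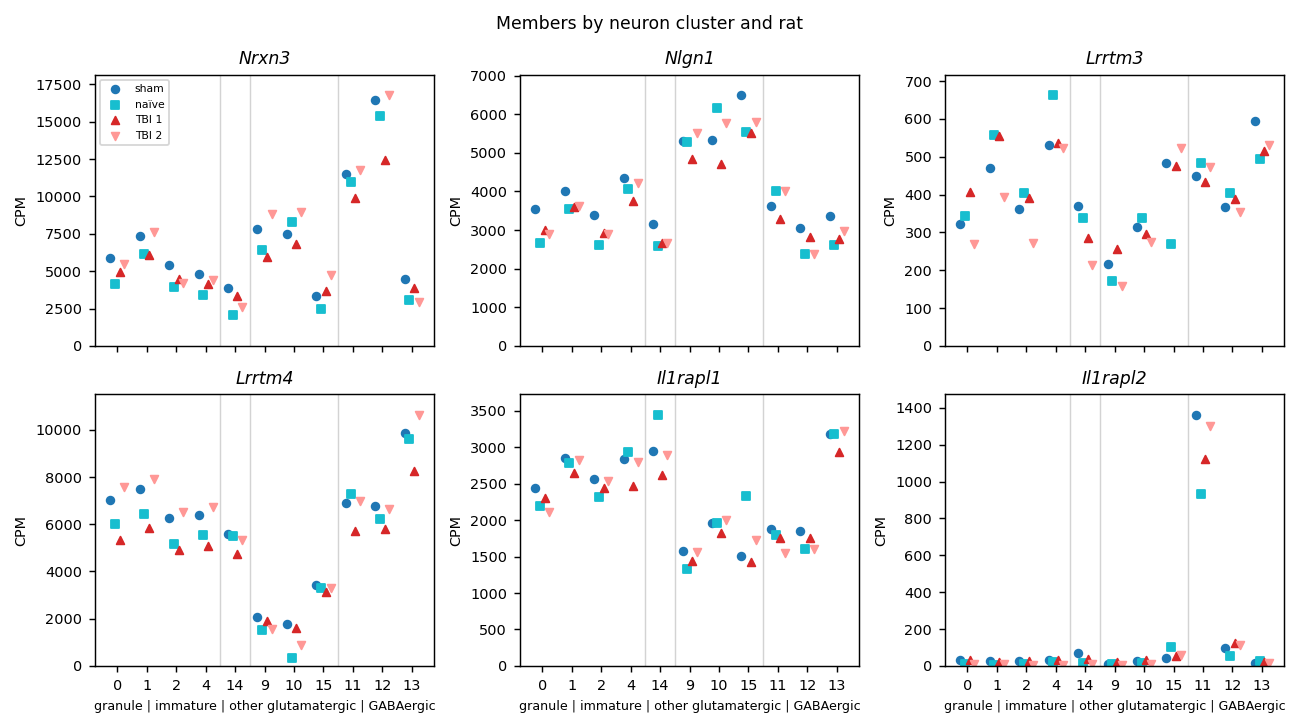
Level of 6 members in each neuron cluster and rat, in CPM on a linear axis from 0, with the clusters grouped by class between grey lines. Il1rapl2 lies between 931 and 1363 CPM in cluster 11 and at 122 CPM or less in the others, Nrxn3 is highest in cluster 12 and Lrrtm4 in cluster 13.

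The second question was whether TBI changed the members. In bulk, 7 of the 8 measured members had a lower fitted level in TBI than in sham, but none passed and none had TBI libraries all on one side of the sham libraries. The same test called 0% of all 14166 genes at an adjusted p of 0.05, DESeq2 called 2.47%, and 14.7% of genes did not overlap between the groups. Before adjustment 9.60% of all genes, 1.40% lower and 8.20% higher, and 0 of the 8 members had an edgeR p under 0.05. The members' median log2FC was -0.17 and that of all genes was -0.0029. In bulk tissue, fewer cells of a type and less RNA per cell cannot be told apart.

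Nrxn3 was at 87.7, 134 and 123 CPM in sham replicates 1, 2 and 3 and at 81.0, 103 and 69.5 CPM in TBI replicates 1, 2 and 3. The means were 115 ± 24.2 and 84.6 ± 17.1 (SD, n = 3). TBI replicate 2 lay above sham replicate 1, so the groups overlapped. The log2FC was -0.48 ± 0.21 (SE), with an edgeR p of 0.0533 before and 0.534 after adjustment. The plain difference in mean deposited log2 CPM, without a fit, was -0.44 over all libraries. Split by month of the injury or sham procedure, that difference was negative before July (-0.42, 2 sham and 1 TBI) and from July on (-0.54, 1 sham and 2 TBI). Without sham replicate 1 the edgeR log2FC was -0.65 and without TBI replicate 2 it was -0.68. The edgeR p-values were 0.00932 and 0.0191 before adjustment and 0.322 and 0.453 after it. Without sham replicate 2 or TBI replicate 3 it was -0.35 in both fits (edgeR adjusted p of 0.642 or more), and the other 2 omissions gave -0.44 and -0.45.

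Nrxn2 was nearly level, at 354, 322 and 352 CPM in sham and 364, 325 and 334 CPM in TBI rats, with a log2FC of -0.04 ± 0.10. Nlgn2 was at 190, 200 and 206 CPM in sham and 210, 188 and 196 CPM in TBI (-0.04 ± 0.09). For both, the groups overlapped, with the highest library in TBI. The difference in mean log2 CPM of each was 0.11 before July and -0.10 from July on.

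Nlgn3 was at 127, 139 and 123 CPM in sham and 124, 112 and 117 CPM in TBI, with 1 TBI library inside the sham range and a log2FC of -0.18 ± 0.10 (edgeR adjusted p = 0.638). Nlgn1 was at 67.5, 93.8 and 96.8 CPM in sham and 74.5, 86.0 and 68.3 CPM in TBI (-0.21 ± 0.17, edgeR adjusted p = 0.764). Sham replicate 1 was the lowest of all 6 libraries for Nlgn1, and without it the log2FC was -0.37 with an edgeR adjusted p of 0.352. Without TBI replicate 2 it was -0.34, and without sham replicate 3 or TBI replicate 3 it was -0.13 in both fits.

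Lrrtm4 was at 43.3, 19.5 and 17.6 CPM in sham and 37.6, 21.5 and 25.03 CPM in TBI, and replicate 1 was the highest library of both groups. The log2FC was 0.03 ± 0.37, and it ran from -0.24 without TBI replicate 1 to 0.54 without sham replicate 1. By period, the difference in mean log2 CPM was 0.37 before July and 0.39 from July on. With the period as a covariate the log2FC was 0.29 ± 0.30. The summed level of the 6 measured granule markers moved like Lrrtm4, at 396, 102 and 94.6 CPM in sham and 288, 110 and 218 CPM in TBI. The part of the markers and of the period in the result was not tested. Lrrtm3 was at 27.1, 19.5 and 17.3 CPM in sham and 23.0, 15.3 and 20.8 CPM in TBI (log2FC -0.15 ± 0.21), and sham replicate 1 was again the highest. Its difference in mean log2 CPM was -0.00031 before July and 0.044 from July on. Those of Nlgn1, Nlgn3 and Il1rapl1 were negative in both periods.

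Il1rapl1 was scarce in bulk, at 2.06, 1.83 and 1.48 CPM in sham and 1.29, 1.57 and 1.14 CPM in TBI, with a log2FC of -0.45 ± 0.32 (edgeR adjusted p = 0.726). TBI replicate 2 lay above sham replicate 3. Its row equalled the estimated count of a single transcript in all 6 libraries, as did 10103 of the 14166 bulk genes. Marker sums of other cells moved with the groups in these libraries: the 11 microglia markers summed to 486 to 493 CPM in sham and 824 to 1428 in TBI, and the 8 measured astrocyte markers to 6006 to 6803 and 9049 to 12269. All 9 oligodendrocyte markers had a negative log2FC, with sham replicate 2 at 17404 CPM against 5129 to 8067 in the other 5 libraries. All 7 pericyte markers had a positive log2FC, with a median of 0.57. The neuron markers were divided. Below 0 were 9 of 12 GABAergic markers (median -0.23), 8 of 9 other glutamatergic (median -0.19) and 5 of 8 immature granule markers (median -0.13). Of the 6 measured granule markers 3 were higher and 3 lower, with a median of 0.033. The part of these shifts in the members' values was not tested.

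**Figure D4:**
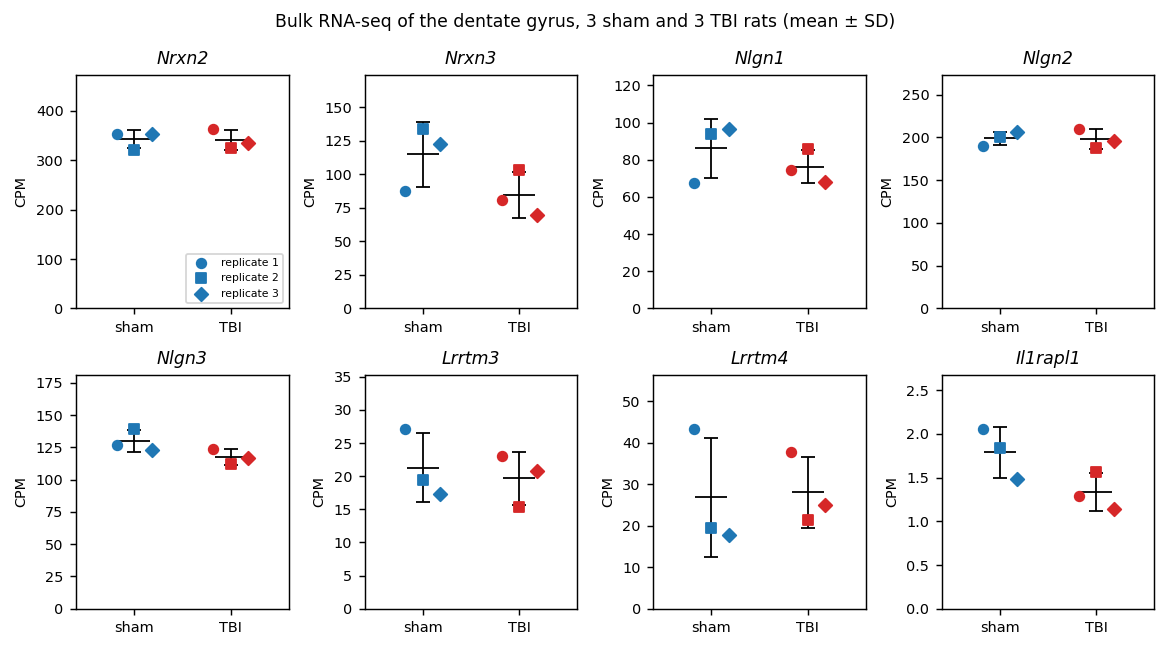
Bulk level of the 8 measured members in CPM of estimated counts, with 1 symbol per library (circle, square and diamond for replicates 1, 2 and 3) and the mean ± SD of 3 libraries. Sham and TBI overlap in all 8 panels, and the 3 TBI libraries of Nrxn3 lie between 69.5 and 103 CPM.

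Of the 67 listed partner genes (ligands, receptors and scaffolds around these members), 60 were measured in bulk, and 0 passed an adjusted p of 0.05. The fitted level was lower in TBI for 48 and higher for 12, with a median log2FC of -0.15. The 3 with the smallest p were Ptprf (0.36 ± 0.12), a receptor-type phosphatase, Dlgap1 (-0.29 ± 0.11), a postsynaptic scaffold, and Lrrtm2 (-0.33 ± 0.13), a neurexin-binding LRRTM. Their edgeR adjusted p-values were 0.392, 0.417 and 0.482. TBI libraries lay wholly below sham for 5 partners and wholly above for 2, where 3.06% and 11.7% of all genes did so.

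In nuclei, TBI was compared with control separately in the 9 classes that had at least 50 nuclei in each rat. Of 77 member and class combinations that passed the filter on low counts, 0 reached an adjusted p of 0.05, with a smallest edgeR adjusted p of 0.250. Over all genes, edgeR called 0% in each of the 9 classes. DESeq2 called 1.95% in astrocyte-like nuclei and 0% in the other 8 classes, and no member among them. Before adjustment 4 of the 77 had an edgeR p under 0.05, which were Nrxn2 in granule-like and astrocyte-like nuclei and Lrrtm3 and Il1rapl1 in immature granule-like nuclei. The share of all genes under that p was 1.14% in granule-like, 12.2% in astrocyte-like and 4.74% in immature granule-like nuclei. In the classes with no such member it was 0.723% in other glutamatergic-like, 1.37% in GABAergic-like, 0.842% in oligodendrocyte-like, 1.63% in OPC-like, 7.21% in committed OPC-like and 0.772% in microglia-like nuclei.

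The classes share the same 4 rats and libraries, so counts of classes are a description and not repeats of the comparison. For Nrxn2 both TBI rats lay above both control rats in 5 of the 9 classes, and in none did both lie below. In granule-like nuclei it was at 100.1 CPM in the sham and 96.4 in the naïve rat against 139 and 131 CPM in the TBI rats, a log2FC of 0.40 ± 0.13 (SE) with an edgeR adjusted p of 0.9997 (0.0252 before adjustment). Leaving out any rat kept it between 0.37 and 0.41. Among all genes, 28.1% did not overlap in granule-like nuclei, 19.9% with TBI above and 8.16% with TBI below.

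In the other neuron classes the log2FC was also above 0, and single rats moved it more. GABAergic-like nuclei held 223 and 179 CPM of Nrxn2 in the control and 273 and 265 CPM in the TBI rats (log2FC 0.35 ± 0.15), where 19.6% of all genes had TBI above. Other glutamatergic-like nuclei held 180 and 146 against 201 and 211 CPM (0.30 ± 0.20), with 15.6% above, and immature granule-like nuclei held 163 and 139 against 165 and 208 CPM (0.27 ± 0.26), with 20.1% above. The latter rested on 211 UMIs in all 4 rats. With each rat left out the values ran from 0.24 to 0.50 in GABAergic-like nuclei (lowest without the naïve rat), from 0.16 to 0.44 in other glutamatergic-like and from 0.061 to 0.42 in immature granule-like nuclei (both lowest without TBI replicate 2).

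Astrocyte-like nuclei gave the largest Nrxn2 difference of these classes, with 105 and 101 CPM in the control and 145 and 164 CPM in the TBI rats. The log2FC was 0.52 ± 0.15, with an edgeR adjusted p of 0.250 and a DESeq2 adjusted p of 0.168, and it ran from 0.42 to 0.60 with each rat left out. There 43.9% of all genes did not overlap and 26.4% had TBI above. Granule markers in astrocyte-like nuclei also lay above, at 2559 and 2327 CPM in the control and 2842 and 2574 CPM in the TBI rats. OPC markers there lay below, at 1204 and 1194 against 839 and 998 CPM. The part of either in the result was not tested. In OPC-like nuclei, where Nrxn2 is most abundant, the groups overlapped (614 and 768 against 662 and 768 CPM). OPC markers in granule-like nuclei summed to 259 and 131 CPM in the control and 277 and 116 CPM in the TBI rats, and overlapped. Stored zeros were 16.1% and 23.7% of Nrxn2 entries in granule-like control nuclei and 2.50% and 34.5% in TBI. In bulk Nrxn2 did not separate the groups either.

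**Figure D5:**
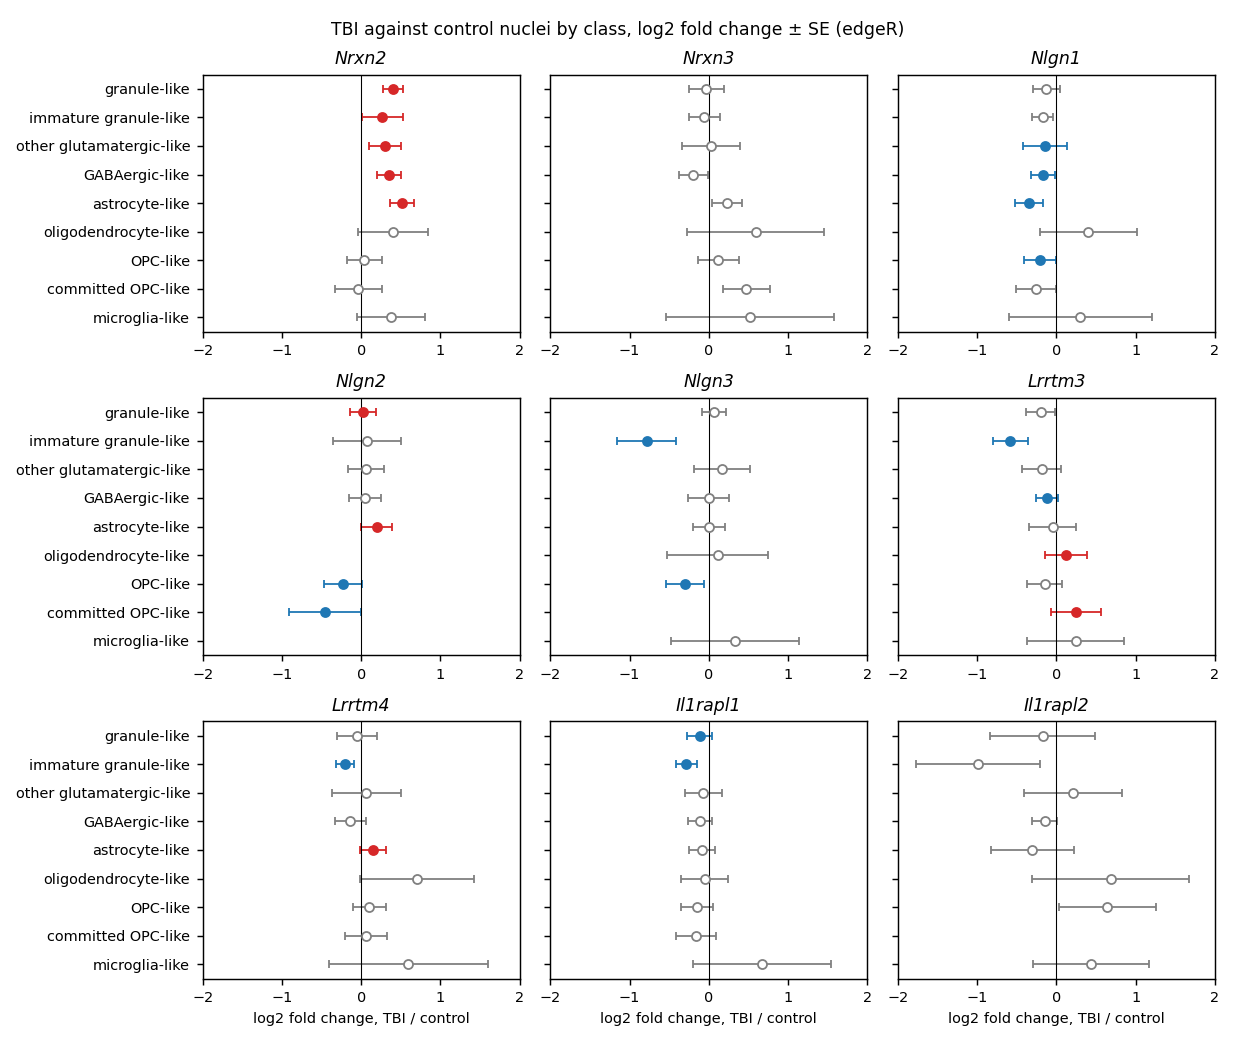
Log2 fold change of TBI against control by class for each member, with its standard error (edgeR). Filled symbols mark classes in which both TBI rats lay above (red) or below (blue) both controls, and open grey symbols mark overlap. Nrxn2 has 5 filled symbols to the right of 0, between 0.27 and 0.52.

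Nrxn3 overlapped between TBI and control in all 9 classes. In granule-like nuclei the log2FC was -0.03 ± 0.22, and it ran from -0.22 without the naïve rat to 0.17 without the sham rat. In GABAergic-like nuclei it was -0.19 ± 0.18, where the sham, naïve and TBI 2 rats lay between 10353 and 11128 CPM and TBI replicate 1 alone at 9140. The difference between these 2 effects was -0.19 ± 0.19 by the interaction test (edgeR adjusted p = 1). Of 13674 genes, 0% passed that test by edgeR and 0.00731% (1 gene, not a member) by DESeq2, and 137 genes had p under 0.05 before adjustment, no member among them. For Nrxn2 the interaction was -0.06 ± 0.13.

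Nlgn1 had both TBI rats below both controls in 4 classes and in none above. In astrocyte-like nuclei it was at 3768 and 3145 CPM in the control and 3104 and 2575 CPM in the TBI rats (log2FC -0.35 ± 0.18, edgeR adjusted p = 0.487), where 17.5% of all genes had TBI below. The value ran from -0.50 to -0.21 with each rat left out. OPC markers in astrocyte-like nuclei also lay below, at 1204 and 1194 CPM in the control and 839 and 998 CPM in the TBI rats, while granule markers lay above, at 2559 and 2327 against 2842 and 2574 CPM, and their part in the result was not tested. OPC-like nuclei gave -0.20 ± 0.20, GABAergic-like -0.17 ± 0.15 and other glutamatergic-like nuclei -0.14 ± 0.28, with 12.5%, 8.89% and 8.77% of genes below. In granule-like nuclei the groups overlapped (-0.13 ± 0.17).

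Nlgn2 differed little between the groups in granule-like nuclei (41.0 and 41.2 against 43.4 and 43.8 CPM), a log2FC of 0.03 ± 0.16 although the rats did not overlap. In astrocyte-like nuclei it was at 43.3 and 36.3 against 47.3 and 48.1 CPM (0.20 ± 0.20). Both TBI rats lay below the controls in OPC-like nuclei (102 and 127 against 96.6 and 99.7 CPM, -0.23 ± 0.24) and in committed OPC-like nuclei (111 and 125 against 91.3 and 86.8 CPM, -0.46 ± 0.46, on 52 UMIs). Nlgn3 was level in granule-like nuclei (0.06 ± 0.15) and lower in OPC-like nuclei, at 138 and 139 against 98.3 and 129 CPM (-0.30 ± 0.24). None of these passed, with an edgeR adjusted p of 0.733 or more.

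Immature granule-like nuclei, named for the young neurons of the adult dentate gyrus, held 832 nuclei in all. A marker gate on single nuclei placed 204 of them in that class, 361 with the granule neurons and 258 in no class. Lrrtm3 was at 371 and 337 CPM in the control and 286 and 213 CPM in the TBI rats, a log2FC of -0.58 ± 0.22 with an edgeR adjusted p of 0.926 (0.0163 before adjustment). Nlgn3 was at 74.2 and 80.6 against 51.0 and 44.8 CPM (-0.78 ± 0.37, on 78 UMIs). Il1rapl1 was at 2944 and 3450 against 2615 and 2899 CPM (-0.29 ± 0.13), and Lrrtm4 at 5571 and 5489 against 4747 and 5335 CPM (-0.20 ± 0.12).

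These were 4 of 9 members with both TBI rats below both controls in that class, where 12.3% of all genes were below and 32.4% did not overlap. Marker sums moved with the groups there too. Granule markers were at 3572 and 3609 CPM in the control and 3246 and 3257 CPM in the TBI rats. Oligodendrocyte markers lay above, at 252 and 115 against 310 and 355 CPM, as did OPC markers, at 282 and 166 against 369 and 327 CPM, and committed OPC markers, at 19.8 and 0 against 39.2 and 84.3 CPM. Their part in these values, and in that of Nrxn2 in this class, was not tested. With nuclei assigned by a marker gate in place of clusters, Lrrtm3 (0.08) and Nlgn3 (0.07) had log2FC slightly above 0. Without the sham rat, so with the naïve rat as the lone control, Il1rapl1 passed at -0.40 (edgeR adjusted p = 0.0201) and Nrxn3 passed in the opposite direction to its value with all rats, at 0.43 (0.0199) against -0.06. The naïve rat held the least Nrxn3 in this class, at 2090 CPM.

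The LRRTM and IL1RAPL members in mature neurons passed no test. In granule-like nuclei Lrrtm4 had a log2FC of -0.05 ± 0.25, with TBI replicate 1 the lowest and TBI replicate 2 the highest of the 4 rats. Lrrtm3 had -0.20 ± 0.18, with TBI replicate 2 the lowest, Il1rapl1 had -0.12 ± 0.16 with both TBI rats just below both controls, and Il1rapl2 had -0.18 ± 0.66. In GABAergic-like nuclei, where Il1rapl2 is abundant, it had -0.15 ± 0.16, and the TBI rats lay inside the range of the controls. Lrrtm3 in GABAergic-like nuclei was at 463 and 462 against 440 and 453 CPM (-0.12 ± 0.14).

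In microglia-like nuclei the naïve rat stood apart, and the values turned on which control was used. They held 4433 CPM of Nrxn3 in the sham rat, 448 in the naïve rat and 4247 and 2910 CPM in the TBI rats. With both controls the log2FC was 0.52 ± 1.06, without the sham rat it was 3.03 (edgeR adjusted p = 0.00813), and without the naïve rat it was -0.34. The same held for Lrrtm4 (0.60 with both controls, 2.87 and 0.00813 without the sham rat), Il1rapl1 (0.67, then 2.51 and 0.0141) and Nlgn1 (0.30, then 2.17 and 0.0187).

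In the naïve rat, 49.7% of the Nrxn3 entries of microglia-like nuclei were stored as 0, against 5.98% in the sham rat, and the summed microglia markers were at 13027 CPM against 4833 to 6921 in the other rats. The part of either in the result was not tested. Among oligodendrocyte-like nuclei, Lrrtm3 was the member whose groups did not overlap, at 247 and 194 against 273 and 247 CPM (0.12 ± 0.27). In committed OPC-like nuclei Nrxn3 was at 2941 and 1475 against 2877 and 3432 CPM (0.48 ± 0.30), and without the sham rat it passed at 1.004 (edgeR adjusted p = 0.00295). Lrrtm3 in that class was at 274 and 232 against 282 and 341 CPM (0.25 ± 0.31), and Lrrtm4 in astrocyte-like nuclei at 3228 and 2614 against 3438 and 3350 CPM (0.15 ± 0.16).

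The partner genes gave 0 calls in nuclei under TBI as well. Of 57 partners tested in granule-like nuclei, 30 were higher and 27 lower, with a median log2FC of 0.01, and the 3 with the smallest p were Ntng2 (0.46), Tenm3 (0.72) and Dlg4 (0.29), whose products are a netrin-G, a teneurin and the scaffold PSD-95. Astrocyte-like nuclei had 37 of 57 higher, a median of 0.17 against -0.02 for all genes, and 12 higher and 6 lower at an unadjusted p under 0.05, where 12.2% of all genes had such a p. Shank1 (0.83, edgeR adjusted p = 0.210) and Shank2 (0.67, 0.211), both postsynaptic scaffolds, and Cask (-0.49, 0.260), a presynaptic neurexin-binding scaffold, had the smallest p there. Granule and immature granule markers also lay above in TBI in astrocyte-like nuclei, while OPC, endothelial and pericyte markers lay below. Their part in the partners' values was not tested.

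Between classes, partners passed in each contrast tested within the 4 rats, as many of all genes did. Of 57 tested, 15 were higher and 14 lower in GABAergic-like than in granule-like nuclei at an edgeR adjusted p of 0.05, where 30.5% of all genes passed, led by Flrt2 (log2FC 3.82) and Tenm3 (2.46), ligands of the latrophilins, and Gpc4 (-2.14), a glypican that binds LRRTM4. In oligodendrocyte-like against OPC-like nuclei, 27 were lower and 3 higher, beside 25.1% of all genes. Cask had -2.12 and Magi1, a scaffold, -1.71, while Ptprd, the receptor phosphatase that binds IL1RAPL proteins, had 2.85. In astrocyte-like against granule-like nuclei, 28 were lower and 7 higher, beside 48.7% of all genes, and Ptprf (2.20), Tenm3 (1.69) and Flrt2 (1.71) had the smallest p.

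Likeness to other genes was described over the 44 sums of 11 classes by 4 rats, by Pearson's r of log2(CPM + 1). Sums of 1 rat share a library and its depth, so these values carry no test. Nrxn3 was most like Cadps (r = 0.928) and Rims2 (0.922), which both serve vesicle release. Lrrtm4 was most like Gabrb2 (0.936), a GABA-A receptor subunit, and Gria4 (0.850), an AMPA receptor subunit. Nlgn1 was most like Adgrb3 (0.926) and Ryr3 (0.896), and Il1rapl1 most like Anks1b (0.870) and Ppp1r9a (0.848).

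Il1rapl2 had weaker matches, led by Col19a1 (r = 0.758) and Reln (0.746). Nlgn2 was most like Acap3 (0.933), and Nlgn3 most like Zdhhc2 (0.878) and Atad5 (0.869). The nearest to Lrrtm3 were Tmem196 (0.856) and Plppr5 (0.830), and those nearest to Nrxn2 were Tmem132d (0.878) and the unnamed locus AABR07021536.1 (0.850).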

How the data were processed

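For bulk RNA-seq the authors quantified reads with kallisto and deposited estimated counts per transcript without normalization, and log2 CPM per gene, from which features without annotation, of low abundance or of low variance had been removed. The transcript table, as used here, pairs no transcript with a gene, so gene counts were worked back from the deposited log2 CPM, which have the form of limma's voom with 0.5 added to each count, and rounded to whole numbers. Entrez rows took symbols from a RefSeq table (13778 of 14166 matched, assembly GRCr8). Nucleus reads were aligned by the authors to Rnor_6.0 with Cell Ranger, introns included, and UMI counts per nucleus were deposited. The study's limits were applied, namely minima of 500 UMIs, 300 features and 0.8 for the gene-to-UMI complexity, and maxima of 5% for mitochondrial and 2% for ribosomal UMIs, which left 55124 of 55863 nuclei. Doublets were not removed.

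Nuclei were clustered in Seurat 5.3.0 (2000 variable features less the members and partners, 25 principal components, CCA integration, resolution 0.6, 23 clusters). A cluster was named when at least 3 fixed markers of its best class lay 0.5 log2 or more above the median cluster. The mean marker score of that class also had to exceed the next class by 0.5. No other class could have more markers among the leading genes, and these genes could not be largely mitochondrial. Glial clusters with at least 0.6 times the granule level of Slc17a7 (1968 nuclei) and unnamed clusters (1941 nuclei) were left out of the classes. Of the unnamed nuclei, 1891 formed a single cluster with 9 astrocyte markers raised. Its leading genes included Gfap but were mostly mitochondrial. UMIs were summed per rat and class. The class names can differ from the study's.

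The main test was the quasi-likelihood test of edgeR (version 4.0.16) on TMM-scaled libraries, and p-values were adjusted by Benjamini-Hochberg over every gene tested. It was run on the 3 against 3 bulk libraries and on the sums of 2 TBI rats against the sham and naïve rats in each class. It was also run between classes, in a single model of all 11 classes with rat as a covariate, and on the class by injury interaction. DESeq2 1.42.0, limma 3.58.1, other factors, filters, class assignments and each library left out were alternatives. With 1 rat left out, 1 arm of a nucleus comparison held 1 rat, which was assumed to vary like the others. The fits were tested on simulated data (200 changed genes). In the labels, replicate numbers are shared by the bulk groups. Same-numbered libraries deviated together with correlations of 0.352, 0.173 and -0.0297, so the numbers were not taken to pair the rats. R 4.3.3, Python 3.11.15 and matplotlib 3.10.9 were used.

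The members and lists were chosen with earlier results of these data known. The text names all 9 members, the 3 partners with the smallest p in a comparison, and for each member the 2 genes most like it among those with a mean of at least 10 CPM, except 1 gene that is not reported here. Markers are named only where a class is checked or moves with a result. Counts of nuclei limit the rarer classes, and libraries in the analysis are named by group and replicate.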

Additional observations from a re-analysis of the deposited data

Results flagged for a closer look

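For 3 members both TBI rats lay above both controls in some classes and below both in others, a contrast between classes that was not tested. Nlgn2 lay above in granule-like (log2FC 0.027) and astrocyte-like nuclei (0.20) and below in OPC-like (-0.23) and committed OPC-like nuclei (-0.46). Lrrtm3 lay below in immature granule-like (-0.58) and GABAergic-like nuclei (-0.12) and above in oligodendrocyte-like (0.12) and committed OPC-like nuclei (0.25). Lrrtm4 lay below in immature granule-like (-0.20) and above in astrocyte-like nuclei (0.15). None of these 10 values passed an edgeR adjusted p of 0.05, and the share of all genes whose groups did not overlap was 27.6% to 43.9% in these classes. No group of this study holds 4 or more samples, so single outlying samples were not tested for.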

How the results depend on the processing

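Among settings other than leaving out a library, 354 log2FC values kept their direction and their side of the threshold, 7 turned direction, 4 lost a call and 1 gained one. With 1 library left out, 252 kept both, 25 turned, 13 lost a call and 6 gained one. Genes at an adjusted p under 0.05, 0 by edgeR as reported, numbered 349 in bulk with DESeq2 and 61 with a replicate block, none of them a member. Same-numbered bulk libraries share only a number, as far as the labels say. By procedure date, both replicate 1 libraries fell before July and both replicate 3 libraries from July on. Replicate 2 was split, with sham before July and TBI from July on. No paired analysis was possible for nuclei because the control was 1 sham and 1 naïve rat, which share a single number with TBI. DESeq2 called 245 genes in astrocyte-like nuclei, and 1 gene in the interaction test between GABAergic-like and granule-like nuclei. With no filter on low counts the genes called were 5 in immature granule-like, 49 in other glutamatergic-like, 35 in GABAergic-like, 627 in astrocyte-like, 2 in oligodendrocyte-like, 17 in OPC-like and 9 in microglia-like nuclei.

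With nuclei assigned by a marker gate, the TBI log2FC turned to 0.27 for Il1rapl2 in granule-like nuclei, to 0.072 for Nlgn3, 0.082 for Lrrtm3 and 0.18 for Nrxn3 in immature granule-like nuclei, to -0.090 for Lrrtm3 in oligodendrocyte-like and to -0.059 for Nlgn1 in microglia-like nuclei. Adding the mixed glial clusters, an alternative chosen after seeing the data, as was leaving out cluster 15, turned Lrrtm3 in oligodendrocyte-like nuclei to -0.11. None of these passed. The cause was not tested.

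With 1 library left out, the genes called ranged from 0 to 1 in bulk, and in nuclei from 0 to 23 in granule-like and other glutamatergic-like, 0 to 25 in GABAergic-like, 0 to 54 in OPC-like, 0 to 59 in astrocyte-like, 0 to 70 in immature granule-like, 0 to 93 in committed OPC-like and 0 to 246 in microglia-like nuclei. Members called under TBI ranged from 0 to 2 in immature granule-like, 0 to 1 in committed OPC-like and 0 to 4 in microglia-like nuclei, each time highest without the sham rat. Between classes 2 to 4 members were called for GABAergic-like and 1 to 4 for astrocyte-like against granule-like nuclei. The log2FC crossed 0 in bulk for Lrrtm4 (-0.24 to 0.54) and Lrrtm3 (-0.28 to 0.049), and in granule-like nuclei for Lrrtm4 (-0.38 to 0.19), Nlgn3 (-0.012 to 0.13), Il1rapl2 (-1.26 to 0.56), Nrxn3 (-0.22 to 0.17) and Nlgn2 (-0.059 to 0.089). It also did for Nrxn3 in immature granule-like (-0.43 to 0.43), Nlgn1 in other glutamatergic-like (-0.34 to 0.035) and Il1rapl2 in GABAergic-like nuclei (-0.29 to 0.037), and in microglia-like nuclei for Nlgn1 (-0.49 to 2.17), Lrrtm4 (-0.24 to 2.87), Il1rapl1 (-0.11 to 2.51) and Nrxn3 (-0.34 to 3.03). Lrrtm3 between GABAergic-like and granule-like nuclei (-0.022 to 0.12), Il1rapl2 between oligodendrocyte-like and OPC-like nuclei (-0.17 to 0.080) and the Nrxn2 interaction (-0.17 to 0.028) crossed 0 too. The planned comparison of the members' transcripts was not run, as no table used here pairs transcripts with genes. Rare classes and low members rest on few UMIs.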

Other observations

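The glial clusters left out of the classes, because they held glial markers beside a granule-like level of Slc17a7, held most members near their granule-like levels. In these 1968 nuclei Lrrtm3 was at 100.2% of the granule level, Il1rapl1 at 104%, Nlgn1 at 96.9% and Lrrtm4 at 87.7%, with Slc17a7 at 78.0%. Nrxn2 was at 142%.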
